A study of Mus musculus with 151 samples.

Results

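The germ cells of female mice conceived by IVF were compared at 2 stages: primordial germ cells (PGCs) of fetuses at E13.5 and ovulated oocytes at 12 weeks of age. The members were the 5 IVF PGC libraries, each labelled as made from 100 female PGCs, and the 40 libraries of single IVF oocytes, together 45 of the 151 samples in the series. The oocytes carry names whose first fields put them into 5 sets of 8 oocytes, called 126_2, 126_3, 126_4, 127_2 and 127_3 here, and the counts of the 8 oocytes of a set were summed, so that 5 PGC libraries stood against 5 oocyte sets. What the fields mean, such as the mother or the day of collection, is not given in the labels, and nothing in them ties a PGC library to an oocyte set or says how many fetuses gave 1 PGC library. A cumulus cell library of the series whose name also begins with 126_2 is labelled Natural, while the 8 oocytes of set 126_2 are labelled IVF and were used as such; without set 126_2, 5796 genes were called higher and 5493 lower between the stages, beside 6168 and 5638 with it.

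All of these mice came from CF-1 females and B6/SJL males. For the IVF group, eggs of superovulated CF-1 females were inseminated in vitro, and the embryos were cultured to blastocysts and then transferred without surgery into pseudopregnant CF-1 recipients. Naturally conceived mice (Natural), from mated females of the same cross, gave 40 libraries of the same kinds, 4 of PGCs and 36 of single oocytes in 5 sets, and were used to ask whether the change between the stages differed between IVF and Natural and, at the end, beside the single IVF oocytes. The pups that grew to adults were delivered by cesarean and fostered in both groups. The adult females of both groups were superovulated before their oocytes were freed from cumulus cells with hyaluronidase, so every adult value is that of a hormonally ovulated egg. PGC libraries and oocyte libraries were deposited in separate tables without added RNA standards, so that stage cannot be told apart from the pooling of cells, the number of cells or the sequencing of each table.

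Female germ cells stop dividing by mitosis at about the time of the earlier stage and begin meiosis, during which homologous chromosomes pair and recombine before the cells arrest in prophase and are enclosed in follicles. A growing oocyte then stores mRNA and protein for the embryo, builds its zona pellucida, the glycoprotein coat that sperm bind, and signals to the granulosa cells around it. Transcription ceases when the oocyte is fully grown, so the mRNA of an ovulated egg is a stored pool that is translated, protected or removed without being renewed. By the study's methods, the libraries were made from polyadenylated RNA. A change between the stages is therefore a change in each mRNA's share of the polyadenylated RNA in very different pools. The length of poly(A) tails was not measured, and its part in the results was not tested.

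Total counts ran from 5520655 to 8675189 in the PGC libraries, from 969774 to 10270378 in the single oocytes (median 5055610) and from 21883240 to 53691800 in the oocyte sets. After all units were thinned to 4364495 counts, the total of the shallowest Natural PGC library, 16248 to 17585 genes were detected in PGC libraries and 15150 to 17715 in oocyte sets, a difference that did not pass an exact permutation test (-798 genes, 12 weeks minus E13.5, two-sided p = 0.206; the smallest p that 5 against 5 allows is 0.00794). The 100 genes with the most reads took 28.6% ± 3.87 of the counts in PGCs and 44.4% ± 2.03 in oocyte sets (SD, n = 5 each; exact permutation p = 0.00794). The Pearson correlation of log2 values was 0.963 to 0.986 among PGC libraries, 0.968 to 0.990 among oocyte sets and 0.664 to 0.711 between the stages. For genes with a mean of at least 20 CPM, the count scaled to each library's total, the median coefficient of variation was 20.5% over the PGC libraries and 21.6% over the oocyte sets.

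Of the 40 IVF oocytes, 6 stood apart from the rest, with a median correlation with the other oocytes of 0.793 to 0.888 where the other 34 had 0.951 to 0.973. Of these, 4 belonged to set 126_4 and 2 to set 127_2, and 4 of the 36 Natural oocytes stood apart in the same way. Each result below was also computed without them, and their own values are given at the end.

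The labelled cell types were checked against marker genes. The summed CPM of 9 genes of the grown oocyte was 4.30 to 8.34 in PGC libraries and 26790 to 59863 in oocyte sets. The 9 PGC identity genes, which include Dazl, summed to 1851 to 3114 CPM in PGC libraries and to 1450 to 3266 CPM in oocyte sets, with Dazl the highest member at both stages and 5 of the 9 under 10 CPM in every set. Markers of fetal supporting cells summed to 2.91 to 9.20 CPM in PGC libraries, and all 13 were under 10 CPM in each of them. In the oocyte sets they summed to 102 to 196 CPM, led by Gata4, with 10 of the 13 under 10 CPM in every set. Of the 5 that were tested, 4 were higher than in PGCs, beside 42.9% of all tested genes. In the oocyte sets the 16 markers of cumulus and granulosa cells summed to 102 to 260 CPM, led by Hsd3b1, against 5.96 to 10.5 CPM in PGC libraries. Erythroid markers reached 662 CPM in 1 set and 25.7 CPM in 1 PGC library, both mostly Hbb-bs, endothelial markers summed to 68.7 to 261 CPM and 71.1 to 153 CPM and were led by Pecam1, and immune and mesenchymal markers stayed at or below 24.7 CPM. The part of such RNA in the results was not tested. Genes of the Y chromosome summed to at most 0.0754 CPM in any unit.

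Between the stages most of the transcriptome differed. Of 14381 genes tested with edgeR's quasi-likelihood test, 6168 (42.9%) were higher and 5638 (39.2%) lower in the 12-week oocyte sets at a Benjamini-Hochberg adjusted p under 0.05, 82.1% together. When a 2-fold change was the null hypothesis of the test (glmTreat), 9655 (67.1%) passed, 35.4% higher and 31.7% lower. In 5560 genes (38.7%) every oocyte set was above every PGC library, and in 4912 (34.2%) every set was below, so that 72.8% did not overlap. With so many genes called, the counts below have to be read against these shares. In addition, 1007 of the tested genes had 3 or fewer counts over 1 of the groups and passed the filter on low counts through the other group alone, so that they had to differ. The scale also matters. With TMM scaling, used for all CPM and fold changes below unless stated, the median log2 fold change of the tested genes was 0.10, but scaling to library totals alone put it at -1.52, and 3729 genes (25.9%) were then called higher and 8316 (57.8%) lower. Upper-quartile factors put the median at -0.53, with 5187 (36.1%) higher and 6745 (46.9%) lower. A gene with a small positive log2 fold change is therefore higher or lower depending on the scale, and this is said where it occurs.

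**Figure D1:**
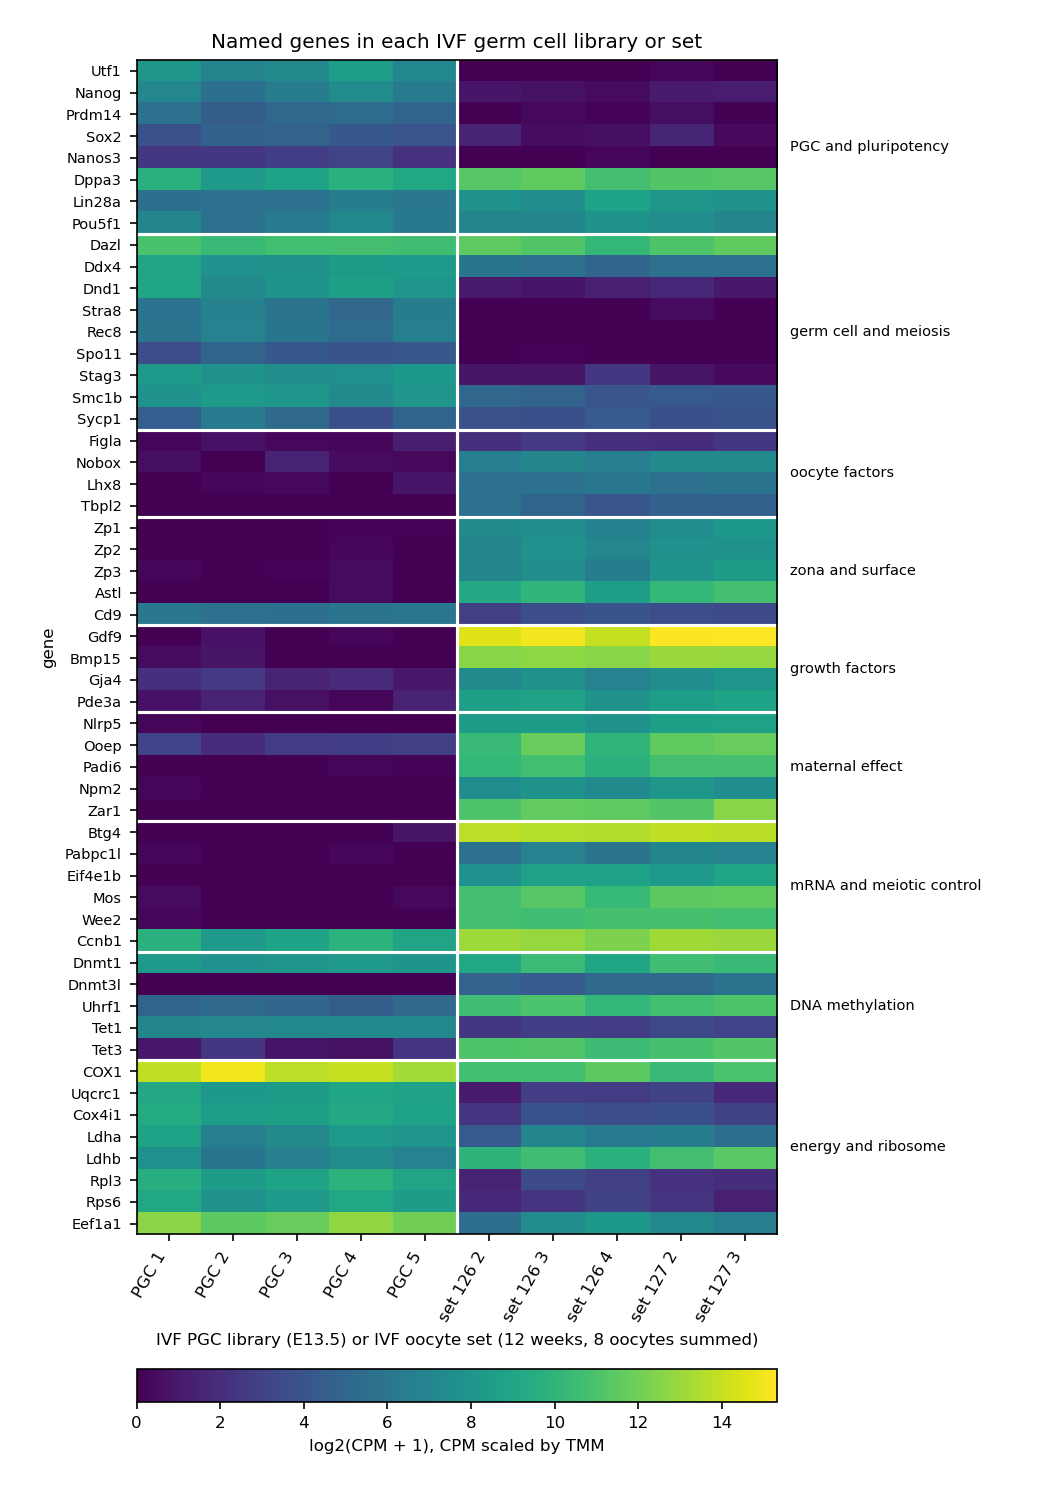
Level of named genes (rows, grouped by role) in the 5 IVF PGC libraries and the 5 IVF oocyte sets (columns), colored by log2(CPM + 1) after TMM scaling. Most pluripotency and early meiotic genes are brighter at left than at right, and most genes of the zona pellucida, the growth factors and the maternal effect genes show the opposite. Dppa3 and Lin28a are brighter at right and Cd9 is brighter at left. Dazl and Pou5f1 are at similar levels at both stages.

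Among pluripotency and PGC regulators, most fell. Of 22 tested members (of 23), 14 were lower and 5 higher at 12 weeks, beside 39.2% and 42.9% of all tested genes. Here 1 member had 3 or fewer counts over 1 of the groups and had to differ. The median log2 fold change was -1.34 (-2.95 with library totals) beside 0.10 (-1.52) over all tested genes. In pooled cells, fewer cells that express a gene and less of its RNA per cell cannot be told apart. Nanog, a homeobox factor of pluripotent cells, was at 133, 47.7, 89.7, 164 and 75.0 CPM in PGC 1 to PGC 5 and at 0.870, 0.609, 0.390, 1.17 and 1.34 CPM in sets 126_2, 126_3, 126_4, 127_2 and 127_3, the order used for all values below. All PGC libraries were far above all sets, and the log2 fold change was -6.82 (SE 0.43, edgeR adjusted p = 4.29e-09). Utf1, a chromatin protein of pluripotent cells, went from 281, 117, 161, 383 and 143 CPM to 0, 0, 0, 0.151 and 0 CPM, that is from 13538 counts to 4, with no overlap (log2 fold change -12.38, SE 0.68). All 4 counts were in set 127_2, and without that set Utf1 was at least 6586-fold lower, with the floor of 3 counts over the other sets. Prdm14, which guards PGC identity, went from 54.7, 21.7, 33.3, 39.8 and 29.5 CPM to at most 0.490 CPM in any set (log2 fold change -7.47, SE 0.59; -8.20 without set 127_2 and -8.49 without the 6 oocytes that stood apart).

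Sox2, a partner of Pou5f1 in pluripotent cells, lay at 13.2, 26.4, 28.2, 17.3 and 15.1 CPM in PGCs and at 1.88, 0.435, 0.520, 2.04 and 0.334 CPM in the sets, again without overlap (log2 fold change -4.23, SE 0.53, edgeR adjusted p = 4.17e-06). Nanos3, an RNA-binding protein that PGCs need to survive, had 338 counts over the PGC libraries and 3 over the sets, 205-fold lower relative to depth (95% Poisson interval 70.1 to 993). All 3 counts were in set 126_4, without which it was at least 178-fold lower. Other members of the list went up. Dppa3, a maternal protein that protects methylation in the zygote, was at 847, 304, 479, 894 and 550.1 CPM in PGCs and at 2627, 3068, 1810.1, 2427 and 2556 CPM in the sets, every set above every PGC library (log2 fold change 2.02, SE 0.29). Lin28a, which blocks let-7 miRNA maturation, rose from 48.4 to 86.1 CPM to 183 to 476 CPM (log2 fold change 2.17), and Sall4, a zinc finger factor of germ and stem cells, from 197 to 353 CPM to 519.6 to 1069 CPM (log2 fold change 1.73). With library totals alone the log2 fold changes of these 3 genes were 0.43, 0.62 and 0.10, and none was called.

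Pou5f1, the pluripotency factor used as a marker of germ cells, differed little: 132, 52.3, 76.9, 139 and 72.4 CPM in PGCs against 130.5, 129, 237, 179 and 122 CPM in the sets. The groups overlapped, and its log2 fold change of 0.76 (SE 0.29, edgeR adjusted p = 0.0244) became -0.77 with library totals. The call was lost in 11 of 23 alternatives, among them upper-quartile factors (0.14, adjusted p = 0.657), sets thinned to the PGC depth (0.30, adjusted p = 0.361) and 1 oocyte per set (0.41, adjusted p = 0.425). It was also lost without the 6 oocytes that stood apart (0.33, adjusted p = 0.219) and without PGC 2 (0.61), PGC 3 (0.69), PGC 5 (0.68) or set 126_4 (0.61).

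Genes of the gonadal germ cell mostly fell as well, with 10 of 17 tested members (of 18) lower and 3 higher, beside 39.2% and 42.9% of all tested genes. Their median log2 fold change was -2.0 (-3.64 with library totals). Dazl, an RNA-binding translation regulator active in both PGCs and oocytes, was at 1974, 1263, 1622, 1774 and 1586 CPM in PGCs and at 2916, 2253, 1168, 2189 and 3078 CPM in the sets. Set 126_4 was the lowest unit of all and the groups overlapped (log2 fold change 0.50, SE 0.25, edgeR adjusted p = 0.0794; -1.16 with library totals and -0.16 with upper-quartile factors; 0.70 and called without set 126_4). Ddx4, the germ cell RNA helicase of the Vasa family, went down from 502, 218, 227, 328 and 302 CPM to 60.5, 51.0, 30.4, 51.9 and 51.4 CPM, with no overlap (log2 fold change -2.68, SE 0.27, adjusted p = 4.00e-07). Dnd1, an RNA-binding protein that keeps PGCs alive, was at 149 to 503 CPM in PGCs and 0.827 to 2.45 CPM in the sets (log2 fold change -7.80, SE 0.44), 1 of the 8 largest falls among genes counted at least 10 times in every unit.

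The genes of meiotic entry and prophase moved in both directions. Of 39 tested members (of 42), 19 were lower, 10 higher and 10 not called (median log2 fold change -0.94, or -2.69 with library totals). Among all tested genes 39.2% were lower and 42.9% higher. The members described here and in the next paragraph fell or were not called. None of the 10 higher ones is described, and the highest log2 fold change in the list was 4.86. Rec8 and Spo11, with 3 or fewer counts over the sets, passed the filter through the PGC libraries and had to differ. Stra8, the retinoic acid-induced gene that opens meiosis, was at 56.6, 107, 58.0, 32.0 and 89.2 CPM in PGCs and at 0, 0.0435, 0, 0.340 and 0 CPM in the sets (log2 fold change -9.56, SE 0.70, edgeR adjusted p = 1.75e-08). Of its 10 counts in the sets 9 were in set 127_2, and without that set it was 6250-fold lower (95% Poisson interval 1122 to 246881). Rec8, the kleisin subunit of meiotic cohesin, was at 58.6, 112, 61.3, 40.1 and 95.1 CPM in PGCs and had 2 counts over the 5 sets, 4312-fold lower (95% Poisson interval 1194 to 35602); both counts were in set 127_2, without which it was at least 2226-fold lower. Spo11, which makes the double-strand breaks of recombination, had 1178 counts in PGCs and 2 in the sets, 1065-fold lower (interval 295 to 8791), both in set 126_3, without which it was at least 571-fold lower.

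Other parts of the meiotic chromosome axis fell less. Smc1b, a meiotic cohesin subunit that oocytes keep in use until the meiotic divisions, went from 162 to 316 CPM to 15.5 to 33.0 CPM (log2 fold change -3.43, SE 0.27), while Stag3, another cohesin subunit, went from 190.1 to 318 CPM to 0.334 to 4.29 CPM (log2 fold change -7.58, SE 0.61), with the highest set value in 126_4 (-8.52 without that set and -8.63 without the 6 oocytes). Hormad1, an axis protein, fell from 57.7 to 86.2 CPM to 12.0 to 40.2 CPM (log2 fold change -1.48, SE 0.28), and Dmc1, the meiotic recombinase, from 7.87 to 13.2 CPM to 0.390 to 5.91 CPM (log2 fold change -1.84, SE 0.58). Sycp1, the transverse filament of the synaptonemal complex, was at 23.0, 78.3, 37.9, 12.5 and 29.7 CPM in PGCs and at 12.8, 12.2, 19.9, 12.6 and 13.9 CPM in the sets. Its groups overlapped (log2 fold change -1.35, SE 0.39, adjusted p = 0.00541). Sycp3, a lateral element protein, was at 7.97 to 18.7 CPM in PGCs and 12.6 to 34.1 CPM in the sets and was not called (log2 fold change 0.50, SE 0.32; -1.18 with library totals and -0.16 with upper-quartile factors).

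The 5 PGC libraries themselves differed in a recurring order, which was noticed after the values were seen and is given without a test. Stra8 and Rec8 were both highest in PGC 2, followed by PGC 5, PGC 3, PGC 1 and PGC 4. Nanog and Utf1 followed exactly the reverse order, from PGC 4 down to PGC 2. Mcm2, a subunit of the replicative helicase, was at 644 and 737 CPM in PGC 1 and PGC 4 and at 223 CPM in PGC 2, and Rplp0, a ribosomal stalk protein, was at 1804 and 2503 CPM in PGC 1 and PGC 4 and at 458 CPM in PGC 2. PGC 2 also had the highest share of mitochondrially encoded counts and the highest Sycp1. The age of each fetus within the day and the make-up of each pool are not in the labels, and their part in this order was not tested.

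Replication genes moved in both directions. Of 40 tested members, 20 were lower and 13 higher, beside 39.2% lower and 42.9% higher among all tested genes. The median log2 fold change was -0.71 (-2.31 with library totals), and the highest was 3.44. Of the 13 higher members only Mcm2 is described. Mcm5, a subunit of the replicative helicase, fell from 366, 159, 233, 389 and 257 CPM to 39.4, 48.1, 18.2, 27.8 and 39.7 CPM (log2 fold change -3.02, SE 0.31, edgeR adjusted p = 5.30e-07). Its partner Mcm2 was instead at 772, 796, 632, 775 and 775 CPM in the sets, overlapping the PGC values given above, with a log2 fold change of 0.69 (SE 0.28, adjusted p = 0.0352) that turned to -0.88 with library totals. Mcm2 was not called in 15 of 23 alternatives, among them DESeq2 size factors (0.65, adjusted p = 0.0551), upper-quartile factors (0.06, adjusted p = 0.849), sets thinned to the PGC depth (0.23) and 1 oocyte per set (0.16). Its call was also lost without PGC 2 (0.52), PGC 3 (0.59), PGC 5 (0.64) or set 126_3 (0.70), 127_2 (0.71) or 127_3 (0.71). Ccnd1, a G1 cyclin, fell from 5.25 to 12.4 CPM to 0.779 to 1.74 CPM (log2 fold change -3.04, SE 0.38), and Mki67, a marker of dividing cells, had overlapping levels of 111 to 329 CPM and 70.2 to 149.6 CPM (log2 fold change -0.90, SE 0.29, adjusted p = 0.0110, not called with sets 126 alone or sets 127 alone).

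**Figure D2:**
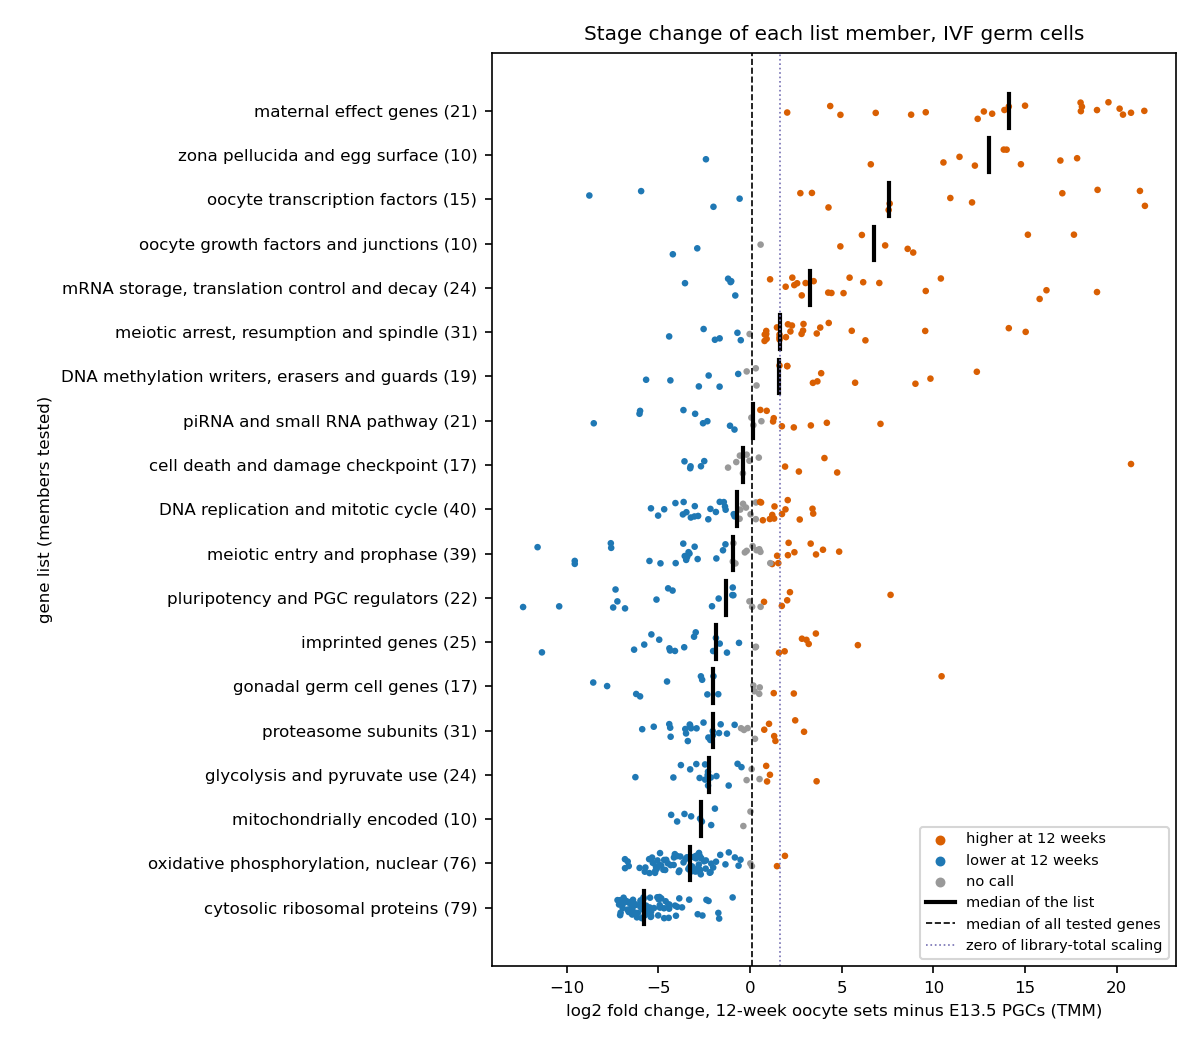
Log2 fold change (12-week oocyte sets minus E13.5 PGCs, TMM scaling) of each tested member of 19 gene lists, with the number of tested members in parentheses; orange points were called higher, blue lower and gray not called at an adjusted p of 0.05. The black bar is the list's median, from 14.11 for maternal effect genes to -5.78 for cytosolic ribosomal proteins; the dashed line is the median of all tested genes (0.10), and the medians of the meiotic arrest, DNA methylation and piRNA lists lie left of the dotted line, where the zero of library-total scaling falls, and change sign under that scaling.

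The genes that mark a grown oocyte rose by the widest margins. Several of them have, in the 250 bases before their transcription start, the hexamer CACCTG on either strand (written CAGGTG where it lies on the other strand), which belongs to the E-box form CANNTG bound by FIGLA and other basic helix-loop-helix factors. It was present in 17.22% of 32851 promoter windows of all mouse genes (RefSeq, GRCm38.p6), in 5 of 7 windows of the zona pellucida and egg surface list (71.43%), in 11 of 22 of the maternal effect list (50%), in 6 of 15 of the oocyte transcription factor list (40%) and in 1 of 9 of the growth factor list (11.11%). These windows came from 6 of the 10 zona genes, 16 of the 21 maternal effect genes, 15 of the 16 transcription factors and 7 of the 10 growth factor genes, some with several windows. Members of these lists without a window include Zp1, Zp2, Plat, Gdf9, Pde3a, Npm2 and Dppa3. The share was 30% among pluripotency and PGC regulators, 8.824% among cytosolic ribosomal proteins, 18.74% among all genes that rose by more than 2-fold and 15.63% among all that fell by more than 2-fold. The looser form CANNTG, of which CACCTG is 1 case, was in 66.22% of all windows, in 85.71% of those of the zona list and in 90.91% of those of the maternal effect list. The median number of CG dinucleotides was 6 over all windows, 4 for the zona list, 2 for the maternal effect list and 18 for the gonadal germ cell genes. The 4 windows below, from genes described in the next paragraphs, are shown because each holds the hexamer, in capitals; the other letters are in lower case. They read 5′ to 3′ on the gene's strand and end at the base before the transcription start. Zp3 has its match at -55 (chr5:135979855-135980104, plus strand), Zar1 at -83 (chr5:72581085-72581334, minus strand), Oosp1 at -249 and -59 (chr19:11691052-11691301, minus strand) and H1foo, named H1f8 in RefSeq, at -66 (chr6:115944681-115944930, plus strand). A match is a description of these letters and not evidence of binding.
Zp3: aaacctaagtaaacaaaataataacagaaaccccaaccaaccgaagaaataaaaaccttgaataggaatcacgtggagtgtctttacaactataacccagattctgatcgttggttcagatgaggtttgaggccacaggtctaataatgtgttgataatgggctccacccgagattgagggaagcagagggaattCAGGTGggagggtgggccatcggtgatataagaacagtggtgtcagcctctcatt
Zar1: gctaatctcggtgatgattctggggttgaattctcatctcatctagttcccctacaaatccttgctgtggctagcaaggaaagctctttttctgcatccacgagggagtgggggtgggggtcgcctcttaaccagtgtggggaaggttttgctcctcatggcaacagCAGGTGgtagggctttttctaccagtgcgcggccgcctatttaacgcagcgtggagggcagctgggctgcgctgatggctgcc
Oosp1: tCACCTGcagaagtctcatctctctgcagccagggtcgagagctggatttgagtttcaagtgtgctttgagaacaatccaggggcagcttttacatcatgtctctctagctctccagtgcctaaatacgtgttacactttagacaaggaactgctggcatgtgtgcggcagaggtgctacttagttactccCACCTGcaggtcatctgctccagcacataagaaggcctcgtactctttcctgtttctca
H1foo: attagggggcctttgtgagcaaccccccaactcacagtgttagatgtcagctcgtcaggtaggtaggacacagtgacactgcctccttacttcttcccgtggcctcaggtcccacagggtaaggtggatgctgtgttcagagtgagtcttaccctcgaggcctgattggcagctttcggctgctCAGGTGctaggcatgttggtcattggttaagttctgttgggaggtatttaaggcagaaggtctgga

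Of the 15 tested oocyte transcription factors (of 16), 11 were higher and 4 lower at 12 weeks, beside 42.9% and 39.2% of all tested genes. Their median log2 fold change was 7.56 (5.91 with library totals). Of the 15, 6 had 3 or fewer counts over 1 of the groups and passed the filter through the other group alone. Figla, which switches on zona genes, was low at both stages, at 0.170, 0.668, 0.239, 0.194 and 1.44 CPM in PGCs and at 3.27, 5.00, 3.18, 2.83 and 4.47 CPM in the sets. All sets were above all PGC libraries (log2 fold change 2.74, SE 0.60, edgeR adjusted p = 0.000742; 1.04 and no call with library totals, and 3.56 without PGC 5). Nobox, a homeobox factor that follicle growth depends on, rose from 0.511, 0, 1.79, 0.389 and 0.240 CPM to 91.7, 123, 92.4, 149 and 145 CPM (log2 fold change 7.56, SE 0.57; 8.69 without PGC 3), and Lhx8, a LIM homeobox factor of the oocyte, from at most 0.841 CPM to 53.0 to 68.9 CPM (log2 fold change 7.61, SE 0.55; 8.85 without PGC 5). Tbpl2, the oocyte's own TATA-binding protein, had 0 counts in the PGC libraries and 52.4, 29.1, 16.2, 26.4 and 25.8 CPM in the sets, at least 658-fold higher when a floor of 3 counts over the PGC libraries is used. The 4 that fell were Taf7l, Zglp1, Sohlh2 and Taf4b.

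Of the 10 zona pellucida and egg surface genes, 9 were higher and 1 lower, beside 42.9% and 39.2% of all tested genes. Among the 9 were 4 with 3 or fewer counts over the PGC libraries. These 4 passed the filter through the oocyte sets and had to differ. The median log2 fold change was 13.05, or 11.70 with these 4 set at their bound. Zp3, which codes for a zona glycoprotein and whose window is printed above, was at 0.170, 0, 0.119, 0.389 and 0 CPM in PGCs and at 129, 195, 86.6, 239 and 320.4 CPM in the sets (log2 fold change 10.54, SE 0.61; 11.24 without PGC 4). Zp1 rose from 4 counts over the PGC libraries to 161, 192, 105, 172 and 289.6 CPM (log2 fold change 11.42, SE 0.48), and Zp2 from 2 counts to 123, 217, 134.5, 211 and 234 CPM, a 6057-fold rise (95% Poisson interval 1677 to 50013). Both counts of Zp2 were in PGC 4, without which the rise was at least 3407-fold. Astl, the cortical granule protease that cleaves ZP2 after fertilization, rose from 4 counts, all in PGC 4, to 372 to 1756 CPM, at least 18576-fold without that library, and Izumo1r (Juno), the egg receptor for sperm IZUMO1, from 0.170 to 0.972 CPM to 51.4 to 64.4 CPM (log2 fold change 6.58, SE 0.36). In all 5 of these genes the groups did not overlap.

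Oosp1 and Plat were chosen after their values were seen. Oosp1, a secreted oocyte protein, had 1 count in the PGC libraries, in PGC 4, and 2935, 3360.1, 1502, 2822 and 3100.5 CPM in the sets, with set 126_4 the lowest. Plat, tissue plasminogen activator, whose mRNA oocytes store, went from 34 counts in PGCs to 6255 to 20591 CPM (log2 fold change 14.77, SE 0.94; 15.46 without PGC 1 and 15.38 without PGC 3). The member that fell was Cd9, a tetraspanin needed for sperm and egg to fuse, at 67.1, 50.6, 47.5, 57.3 and 64.1 CPM in PGCs and 6.47, 11.9, 14.4, 11.5 and 9.69 CPM in the sets, with no overlap (log2 fold change -2.41, SE 0.24, edgeR adjusted p = 3.27e-07).

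Of the 10 growth factor, junction and arrest signalling genes, 7 were higher and 2 lower, beside 42.9% and 39.2% of all tested genes. Their median log2 fold change was 6.73, or 5.07 with library totals. Gdf9, the TGF-beta family ligand by which the oocyte acts on its granulosa cells, had 0, 0.668, 0, 0.194 and 0 CPM in PGCs and 24108, 34364, 16259, 37973 and 40954 CPM in the sets, where it was among the 5 genes with the most reads (log2 fold change 17.66, SE 0.81, edgeR adjusted p = 2.22e-10). Of its 9 counts in PGCs 7 were in PGC 2, and without that library the rise was 851816-fold (95% Poisson interval 235807 to 7033716). Bmp15, its partner ligand, rose from 12 counts over the PGC libraries to 6322, 6621, 6218, 8459 and 7981 CPM (log2 fold change 15.15, SE 0.71; 16.45 without PGC 2). Both were lowest in set 126_4. Gja4, the connexin of the gap junctions between oocyte and granulosa cells, rose from 1.08 to 4.97 CPM to 109 to 267 CPM (log2 fold change 6.10, SE 0.41). Gpr3, the receptor whose constant activity keeps cAMP high and meiosis arrested, rose from at most 1.34 CPM to 75.2 to 126 CPM (log2 fold change 7.37, SE 0.51), and Pde3a, the phosphodiesterase that removes that cAMP when meiosis resumes, from at most 1.74 CPM to 233 to 479 CPM (log2 fold change 8.59, SE 0.47).

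The maternal effect genes, whose products the embryo needs before its own genome is active, all rose: 21 of 21 tested members were higher, and in all 21 every set was above every PGC library, beside 42.9% and 38.7% of all tested genes. The median log2 fold change was 14.11, with 13 members at 3 or fewer counts over the PGC libraries that passed the filter through the oocyte sets and had to differ, and with library totals the call was lost for Dppa3 alone. Members of the subcortical maternal complex, a protein assembly under the egg membrane, differed in how far they had been silent in PGCs. Nlrp5 had 2 counts in the PGC libraries and 338, 351, 234, 397 and 438 CPM in the sets, an 11594-fold rise (95% Poisson interval 3209.5 to 95732). Both counts were in PGC 1, without which the rise was at least 6352-fold. Ooep had 7.32, 2.86, 5.55, 6.12 and 6.37 CPM in PGCs and 1040 to 3526 CPM in the sets (log2 fold change 8.78, SE 0.49). Tle6 had 11.0 to 21.1 CPM in PGCs and 143 to 457 CPM in the sets (log2 fold change 4.37, SE 0.34), and Khdc3 0.764 to 2.53 CPM and 22.3 to 70.3 CPM (log2 fold change 4.93, SE 0.41). Padi6, an arginine deiminase family protein of the egg's cytoplasmic lattices, rose from 5 counts to 912 to 1810 CPM (log2 fold change 14.11, SE 0.48).

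Zar1, an RNA-binding protein of the oocyte's mRNA store, had 0 counts in all PGC libraries and 2116, 3201, 2897, 2384 and 6304 CPM in the sets. Set 127_3 was the highest, and the rise was at least 74264-fold. Npm2, the histone chaperone that unpacks sperm chromatin, had 2 counts in PGCs and 155 to 272 CPM in the sets, a 6709-fold rise (interval 1857 to 55399), or at least 3676-fold without PGC 1, which held both counts. Zbed3, another member, was at 50340, 52212, 47902, 48446 and 58952 CPM in the sets, where it was among the 5 genes with the most reads, and had 12 counts over the PGC libraries. H1foo, the oocyte linker histone, which was in no list but was followed as a member of a gene pair, had 0 counts in PGCs and 28656, 33617, 16062, 32335 and 35390 CPM in the sets, at least 641760-fold higher.

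The machinery that stores, translates and removes mRNA was remodelled. Of 24 tested members, 19 were higher and 5 lower, beside 42.9% and 39.2% of all tested genes. Among the 24 were 3 with 3 or fewer counts over 1 of the groups, which had to differ. Their median log2 fold change over all 24 was 3.25, or 1.64 with library totals. Btg4, the adaptor that brings the CCR4-NOT deadenylase to maternal mRNA, had 12 counts in the PGC libraries, all in PGC 5, and 13930, 12532, 11986, 15098 and 13566 CPM in the sets (log2 fold change 16.16, SE 0.76), and without PGC 5 the rise was at least 220376-fold. The groups were far apart. Cnot6l, a catalytic subunit of that deadenylase, rose from 6.73 to 30.3 CPM to 312 to 407 CPM (log2 fold change 4.26, SE 0.34), and Dcp1a, a decapping cofactor, from 25.2 to 42.8 CPM to 4217 to 5435 CPM (log2 fold change 7.05, SE 0.25). Lsm14b, a protein of stored mRNA particles, rose from 2.82 to 7.64 CPM to 188 to 422 CPM (log2 fold change 6.17, SE 0.36).

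Among translation factors, Eif4e1b, an oocyte form of the cap-binding protein, had 0 counts in PGCs and 214, 428, 439, 318 and 534 CPM in the sets, at least 8491-fold higher. Cpeb1, which binds the cytoplasmic polyadenylation element, was already at 122 to 173 CPM in PGCs and at 380.4 to 745 CPM in the sets (log2 fold change 1.94, SE 0.21; 0.27 and no call with library totals). Ybx2, known as MSY2 and as an abundant protein of stored oocyte mRNA, was at 10.3, 42.1, 25.8, 9.33 and 15.7 CPM in PGCs and at 7.24, 4.26, 12.0, 12.3 and 9.19 CPM in the sets. Its groups overlapped, and its log2 fold change was -1.20 (SE 0.43, edgeR adjusted p = 0.0177). Without PGC 2 it was -0.77 (adjusted p = 0.0800) and with oocytes weighted equally -0.81 (adjusted p = 0.150), neither called, and without the 6 oocytes that stood apart it was -1.83.

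Of 31 tested genes of meiotic arrest, resumption and the spindle, 24 were higher and 6 lower, beside 42.9% and 39.2% of all tested genes. Here 1 gene had 3 or fewer counts over 1 of the groups and had to differ. The median log2 fold change of the 31 was 1.61. With library totals the median was -0.05, with 11 higher and 12 lower. Mos, the kinase that holds the egg at metaphase of the second division, had 8 counts in PGCs and 1717, 2553, 1209.7, 2797 and 3019.8 CPM in the sets (log2 fold change 14.11, SE 0.63, edgeR adjusted p = 1.83e-10; 14.81 without PGC 1). Wee2, the oocyte kinase that restrains CDK1, had 3 counts in PGCs and 1733, 1599, 1875, 1897 and 1665 CPM in the sets, a 38529-fold rise (interval 13184 to 186830); without PGC 1, which held 2 of the 3, the rise was 94990-fold (17049 to 3751891). No set overlapped a PGC library for either gene. Fbxo43 (Emi2), which blocks the anaphase-promoting complex in the arrested egg, rose from 0.291 to 2.58 CPM to 701 to 958 CPM (log2 fold change 9.55, SE 0.52).

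Ccnb1, cyclin B1, was high at both stages, at 886, 306, 478, 952 and 500.2 CPM in PGCs and 8681, 7640.4, 5106, 9185 and 8179.7 CPM in the sets, and every set was above every PGC library (log2 fold change 3.63, SE 0.33; 2.05 with library totals). Cdc25b, the phosphatase that activates CDK1 when meiosis resumes, rose from 6.51 to 9.43 CPM to 20.2 to 58.3 CPM (log2 fold change 2.20, SE 0.30; 1.52 without the 6 oocytes that stood apart), and Aurkc, the Aurora kinase of meiotic cells, from 18.6 to 39.0 CPM to 109 to 271 CPM (log2 fold change 2.28, SE 0.29). With library totals the log2 fold changes of these last genes were 0.63 and 0.74, and neither was called.

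DNA methylation genes moved in both directions. Of 19 tested members, 10 were higher and 6 lower, beside 42.9% higher and 39.2% lower among all tested genes. Dnmt3l, with 0 counts in PGCs, passed the filter through the oocyte sets and had to differ. The median log2 fold change of 1.60 became -0.03 with library totals. Germ cells at the earlier stage have erased most of their DNA methylation, and the growing oocyte sets it again with DNMT3A and its cofactor DNMT3L. Dnmt3a rose from 27.3, 32.5, 30.3, 19.7 and 37.2 CPM to 473, 434, 349.6, 361 and 543 CPM (log2 fold change 3.88, SE 0.23, edgeR adjusted p = 1.86e-09), and Dnmt3l from 0 counts to 26.7, 20.2, 36.7, 38.6 and 57.6 CPM, at least 789.9-fold. Dnmt3b, the related enzyme, rose by a like amount, from 2.40 to 9.26 CPM to 49.2 to 97.3 CPM (log2 fold change 3.67, SE 0.33).

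Uhrf1, which guides DNMT1 to replicated DNA, rose from 22.3 to 38.9 CPM to 1113 to 2108 CPM (log2 fold change 5.73, SE 0.27). Dnmt1 itself was at 306, 212, 249.7, 309.6 and 239.6 CPM in PGCs and at 581, 1393, 535, 1559 and 1296 CPM in the sets (log2 fold change 2.03, SE 0.30; 0.38 and no call with library totals). Kdm1b, the histone demethylase that maternal imprints depend on, rose from 35.0 to 51.7 CPM to 345 to 595 CPM (log2 fold change 3.43, SE 0.22). Of the oxidases that remove methylation, Tet1 fell from 131, 137, 138, 138 and 141 CPM to 4.59, 6.26, 5.98, 9.32 and 7.43 CPM (log2 fold change -4.35, SE 0.22) and Tet3 rose from 1.02, 4.30, 0.836, 0.583 and 4.20 CPM to 2185, 2268, 1430.4, 1861 and 2342 CPM (log2 fold change 9.84, SE 0.60). Neither gene had overlapping groups.

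The piRNA and small RNA genes split evenly, with 9 of 21 tested members (of 22) higher and 9 lower. Of all tested genes, 42.9% were higher and 39.2% lower, near the shares of this list. Its median log2 fold change was 0.18, which was -0.49 with upper-quartile factors and -1.50 with library totals. Piwil2, a PIWI protein that binds piRNAs, fell from 78.7 to 143 CPM to 0.487 to 3.72 CPM (log2 fold change -6.00, SE 0.55), Mov10l1, the helicase needed to make piRNAs, from 70.5 to 103 CPM to 5.95 to 7.92 CPM (log2 fold change -3.64, SE 0.20), and Mael from 41.1 to 62.9 CPM to 4.84 to 20.9 CPM (log2 fold change -2.33, SE 0.38; -3.26 without the 6 oocytes that stood apart). Tdrd1, a Tudor protein of the same granules, rose from 10.8 to 29.9 CPM to 76.0 to 122 CPM (log2 fold change 2.38, SE 0.28), a rise that was 0.78 with library totals. Dicer1, which mouse oocytes use to make endogenous siRNAs, rose from 28.5, 56.0, 43.4, 40.5 and 50 CPM to 482, 438, 346, 425 and 478 CPM (log2 fold change 3.31, SE 0.21), with no overlap.

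Of 25 tested imprinted genes (of 34), 16 were lower and 7 higher, beside 39.2% and 42.9% of all tested genes. Here 1 gene had 3 or fewer counts over 1 of the groups and had to differ. The median log2 fold change of the 25 was -1.87, or -3.48 with library totals. H19, a maternally expressed noncoding RNA, was at 10.7, 19.8, 21.3, 9.62 and 11.4 CPM in PGCs and at 0.0696, 0.740, 0.779, 0.226 and 0 CPM in the sets (log2 fold change -5.39, SE 0.72, edgeR adjusted p = 8.18e-06; -6.19 without the 6 oocytes that stood apart). Its neighbor Igf2 fell from 2.82 to 7.74 CPM to 0.209 to 0.870 CPM (log2 fold change -2.97, SE 0.52), and Peg3, a paternally expressed zinc finger gene, from 171 to 384 CPM to 10.5 to 16.8 CPM (log2 fold change -4.37, SE 0.27). Mest, also paternally expressed in somatic tissue, rose from 8.60, 5.06, 7.05, 7.00 and 5.34 CPM to 519.7, 363, 254, 363 and 444 CPM (log2 fold change 5.88, SE 0.27). Plagl1 overlapped between the groups, with PGC 4 at 15.0 CPM and set 126_2 also at 15.0 CPM (log2 fold change -2.02, SE 0.35). The files hold no allelic counts, so parental expression was not analysed here.

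Most energy genes fell. Oocytes depend on pyruvate from cumulus cells and use little glucose, and they carry very many mitochondria. Of 24 tested genes of glycolysis and pyruvate use, 17 were lower and 4 higher (median log2 fold change -2.22), and of 76 nuclear genes of oxidative phosphorylation, 72 were lower and 2 higher (median -3.26), beside 39.2% lower among all tested genes. Hk1, hexokinase 1, fell from 9.55 to 56.7 CPM to 0.905 to 4.83 CPM (log2 fold change -3.78, SE 0.56), Pfkp, a phosphofructokinase, from 23.8 to 95.6 CPM to 3.55 to 16.6 CPM (log2 fold change -2.30, SE 0.47), and Pgk1, phosphoglycerate kinase, from 40.9 to 86.0 CPM to 8.21 to 15.5 CPM (log2 fold change -2.32, SE 0.28). Ldha, the lactate dehydrogenase subunit that favors lactate production, was at 478, 95, 146, 294 and 256 CPM in PGCs and 19.2, 125, 81.8, 84.0 and 44.9 CPM in the sets (log2 fold change -1.84, SE 0.48, edgeR adjusted p = 0.00270), with set 126_3 above PGC 2. Ldhb, the subunit that favors pyruvate production, went the other way, from 203, 61.5, 100.0, 167 and 111 CPM to 1017, 1599, 883, 1693 and 2747 CPM, without overlap (log2 fold change 3.63, SE 0.39).

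In the respiratory chain, Ndufs1 of complex I fell from 84.2 to 126 CPM to 9.06 to 12.7 CPM (log2 fold change -3.30, SE 0.20), Uqcrc1 of complex III from 615, 291, 344, 510.5 and 461 CPM to 1.11, 6.00, 5.52, 6.90 and 2.25 CPM (log2 fold change -6.68, SE 0.49), and Cox4i1 of complex IV from 368 to 682 CPM to 3.90 to 13.5 CPM (log2 fold change -5.71, SE 0.37). Atp5a1 of the ATP synthase fell less, from 344 to 1036 CPM to 121 to 176 CPM (log2 fold change -2.20, SE 0.29). Sdha of complex II was an exception, at 179 to 512 CPM and 253 to 422 CPM (log2 fold change 0.10, SE 0.27, not called; -1.50 with library totals and -0.55 with upper-quartile factors).

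Of 10 tested genes (of 13) encoded by the mitochondrial genome, 8 were lower and 0 higher, beside 39.2% and 42.9% of all tested genes. Their median log2 fold change was -2.68. COX1 was at 15038, 33239, 13927, 15933 and 9552 CPM in PGCs and at 1636, 1641, 2865, 1282 and 2002 CPM in the sets (log2 fold change -3.22, SE 0.36). PGC 2 was the highest and set 126_4 the highest of the sets. ND1 and CYTB fell likewise (log2 fold changes -3.58 and -2.73). Mitochondrially encoded genes took 8.00% ± 4.56 of the counts in PGC libraries, with PGC 2 at 16.0% and the others at 4.80% to 6.95%, and 0.334% ± 0.116 in the oocyte sets (SD, n = 5 each), a difference of -7.67 percentage points (exact permutation test, two-sided p = 0.00794).

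Cytosolic ribosomal protein mRNAs fell throughout. All 79 tested members were lower, all 79 without overlap between the groups (34.2% of all tested genes were lower without overlap), and the median log2 fold change was -5.78 (-7.37 with library totals). Rpl3 was at 828, 342, 466, 940 and 499 CPM in PGCs and at 1.88, 11.0, 6.43, 3.47 and 3.09 CPM in the sets (log2 fold change -6.90, SE 0.53, edgeR adjusted p = 2.76e-08). Rps3 and Rps6 had log2 fold changes of -6.53 (SE 0.41) and -6.74 (SE 0.45), and Rplp0 had -3.71 (SE 0.53), with sets at 52.5, 92.0, 203, 71.1 and 54.9 CPM and set 126_4 again the highest. Eef1a1, the elongation factor that delivers tRNA to the ribosome, was among the 5 genes with the most reads in PGCs, at 6489, 2862, 3476, 7006 and 4161 CPM, and fell to 45.3 to 286 CPM (log2 fold change -5.04, SE 0.48). Many ribosomal protein genes have near-identical pseudogenes, and reads shared with them could have been assigned or lost in counting.

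Pabpc1, the general poly(A)-binding protein, fell with them, from 153, 382, 350.4, 245 and 284 CPM to 11.1, 12.3, 14.5, 9.51 and 10.8 CPM (log2 fold change -4.61, SE 0.27). Of 31 tested proteasome subunits, 21 were lower and 6 higher, beside 39.2% and 42.9% of all tested genes. Their median log2 fold change was -2.04, or -3.63 with library totals.

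Of 17 tested genes (of 19) of cell death and the damage checkpoint, 5 were higher and 5 lower (median log2 fold change -0.39). Bcl2l10, with 0 counts in PGCs, passed the filter through the oocyte sets and had to differ. Among all tested genes 42.9% were higher and 39.2% lower. Trp63, whose TAp63 form watches over DNA damage in resting oocytes, rose from 1.53, 1.43, 1.55, 1.55 and 1.5 CPM to 35.7, 23.9, 21.4, 23.9 and 21.5 CPM (log2 fold change 4.05, SE 0.26, edgeR adjusted p = 4.87e-09), while Chek2, the kinase that activates it, fell from 26.0 to 30.9 CPM to 1.28 to 3.64 CPM (log2 fold change -3.58, SE 0.31). Neither overlapped. Trp53 was at 76.8 to 394 CPM and 86.0 to 181 CPM and was not called (log2 fold change -0.56, SE 0.38, adjusted p = 0.185; -2.12 and called with library totals, and -0.77 and called without PGC 2). Bcl2l10, a BCL2 family protein of the egg, had 0 counts in PGCs and 14706, 12641, 7682, 12539 and 13605 CPM in the sets, at least 268780-fold higher.

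Among called genes that did not overlap and had at least 10 counts in every unit, the 8 largest rises were those of Meis2 (log2 fold change 10.07), Bpgm (9.87), AU022751 (9.71), Birc3 (9.45), Afap1l2 (9.37), Phf1 (9.33), 4933427D06Rik (9.21) and Spin1 (9.13). Meis2, a TALE homeobox factor, was at 1.19, 1.34, 2.39, 2.23 and 1.32 CPM in PGCs and at 2205, 1919, 1564, 1892 and 1618 CPM in the sets. Bpgm, bisphosphoglycerate mutase, rose from 7.45 to 12.1 CPM to 6084 to 11508 CPM. Spin1, a histone reader required for the oocyte to complete meiosis, had 84.5, 93.0, 98.8, 99.8 and 86.8 CPM in PGCs and 53011, 52388, 44239, 57347 and 53035 CPM in the sets, where it was among the 5 genes with the most reads together with Zbed3, Gdf9, H1foo and Khdc1b. Khdc1b reached 20826 to 28528 CPM from 25 counts over the PGC libraries.

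The 8 largest falls by the same rule were those of Cct6a (log2 fold change -7.81), Dnd1 (-7.80), Cacybp (-7.38), Rpl39 (-7.23), Gm9794 (-7.22), Rpl36a (-7.15), Vars (-7.14) and Rps18 (-7.10). Cct6a, a subunit of the TRiC chaperonin that folds actin and tubulin, was at 1665, 533, 791, 1654 and 869.5 CPM in PGCs and at 1.25, 7.61, 5.13, 7.96 and 2.59 CPM in the sets. Rpl39, Rpl36a and Rps18 are ribosomal protein genes and Vars codes for valyl-tRNA synthetase. The genes with the most reads in PGCs were COX1, CYTB, ND1, LOC101056014 and Eef1a1. LOC101056014 was at 11825 to 22304 CPM in PGCs and 7615 to 17605 CPM in the sets and was not called (log2 fold change -0.22, SE 0.28, adjusted p = 0.468).

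Ratios between 2 genes of the same library do not depend on a scale factor between libraries, but where counts are few they depend on the added pseudocount and on depth. In 22 pairs of related genes, 1 member was labelled the general form and 1 the germ cell form. The labels only name the members: Tet1, labelled general, had 9061 counts in PGCs, and Tet3 had 147. Each log2 ratio of counts (with 0.5 added) was compared between 5 PGC libraries and 5 sets by an exact permutation test. Benjamini-Hochberg adjustment was over the 22 pairs. In 7 of the pairs the germ cell form had 3 or fewer counts over 1 of the groups, so that it had to differ and the size of its shift is not determined: H1foo over H1f0, Bcl2l10 over Bcl2l1, Eif4e1b over Eif4e and Tbpl2 over Tbp, with 0 counts of the germ cell form in PGCs, Wee2 over Wee1 and Npm2 over Npm1, with 3 and 2, and Rec8 over Rad21, with 2 counts of Rec8 in the sets. All 7 passed the test. Of the other 15 pairs, 9 differed and 6 did not pass. Tet3 over Tet1 went from -6.42 ± 1.31 to 8.24 ± 0.49 (SD, n = 5 each; difference 14.66, exact permutation adjusted p = 0.0109, which each of the 9 pairs had). Pabpc1l over Pabpc1 also rose, with 4 counts of Pabpc1l in PGCs. Fbxo43 over Fbxo5 rose by 7.07, Ldhb over Ldha by 5.51, Elavl2 over Elavl1 by 2.97 and Aurkc over Aurkb by 2.89.

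In these pairs the general form did not always decline. H1f0, a replication-independent linker histone, rose from 8.72 to 11.5 CPM to 168 to 232 CPM (log2 fold change 4.32, SE 0.19), and Bcl2l1 (BCL-XL) from 34.1 to 42.2 CPM to 176 to 361 CPM. Wee1, the CDK1 inhibitory kinase of dividing cells, fell from 113 to 139.9 CPM to 4.61 to 10.0 CPM. Eif4e had 357, 171, 245, 394 and 248.98 CPM in PGCs and 571, 454, 556, 542 and 433 CPM in the sets (log2 fold change 0.85, SE 0.23, -0.72 with library totals, and 0.22 and not called with upper-quartile factors). In the sets the log2 ratio of Eif4e1b to Eif4e was -0.46 ± 0.66. Pabpc1l rose from 4 counts, 2 each in PGC 1 and PGC 4, to 51.3 to 129 CPM (log2 fold change 10.40, SE 0.59, or 11.05 without either library). Aurkb was at 36.5 to 81.4 CPM and 27.1 to 46.7 CPM (log2 fold change -0.69, SE 0.25; not called without set 126_3 or with sets 127 alone).

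Meiotic cohesins went the other way against the mitotic ones, with differences of -10.84 for Stag3 over Stag2 and -3.31 for Smc1b over Smc1a. The difference was -2.81 for Ybx2 over Ybx1, and Ybx1 rose from 120.5 to 252.5 CPM to 400.4 to 587 CPM (log2 fold change 1.71, SE 0.24; 0.10 and no call with library totals). The 6 pairs that did not pass were Lsm14b over Lsm14a (difference 0.80, adjusted p = 0.0822 by the exact permutation test), Zfp36l2 over Zfp36l1 (0.68), Cdc25b over Cdc25a (0.50), Ccnb3 over Ccnb1 (0.30), Dnmt3a over Dnmt3b (0.15) and Gja4 over Gja1 (-1.05). Several of these depended on the setting. Gja4 over Gja1 was 0.38 with 5 added to the counts, Cdc25b over Cdc25a was -0.14 without the 6 oocytes that stood apart and Ccnb3 over Ccnb1 was -0.093 without PGC 4. Dnmt3a over Dnmt3b was -0.087 with 1 oocyte per set and passed without PGC 5 (0.54). Lsm14b over Lsm14a passed without PGC 1 (0.99), without set 126_4 (0.97) or without the 6 oocytes (1.02), and Zfp36l2 over Zfp36l1 without set 126_3 (1.15).

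**Figure D3:**
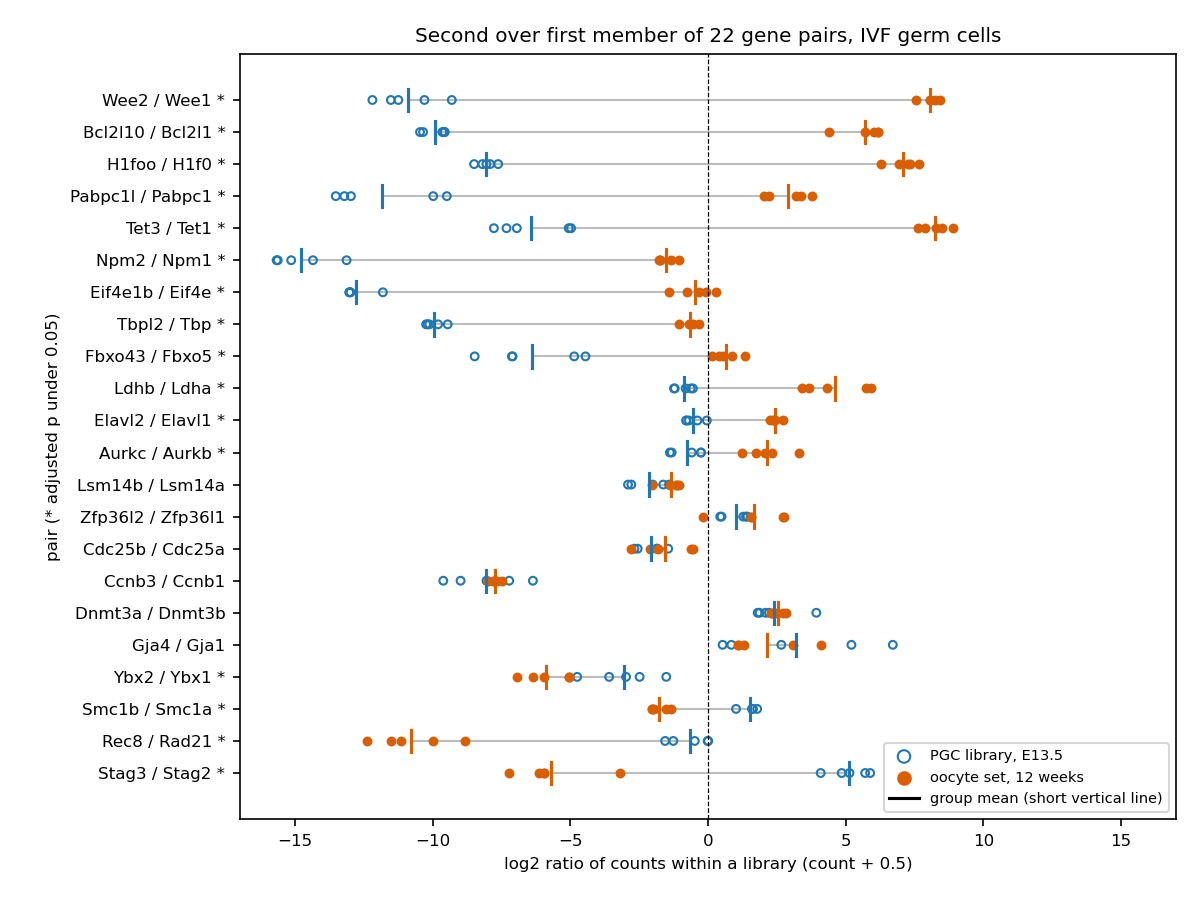
Log2 ratio of the counts of 22 gene pairs within each IVF PGC library (open blue circles, n = 5) and each IVF oocyte set (filled orange circles, n = 5), with group means as short vertical lines; an asterisk marks an adjusted p under 0.05 by the exact permutation test. PGC points of H1foo, Bcl2l10, Eif4e1b and Tbpl2 are set by the added 0.5, since these genes had 0 counts there. For 12 pairs from Wee2 / Wee1 to Aurkc / Aurkb the oocyte sets lie to the right of the PGC libraries, and for Ybx2 / Ybx1, Smc1b / Smc1a, Rec8 / Rad21 and Stag3 / Stag2 they lie to the left.

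Whether the change between the stages differed between IVF and Natural was asked with an interaction term over the 5 IVF and 4 Natural PGC libraries and 5 oocyte sets of each group. The Natural sets (35_1, 35_3, 92_3, 92_4 and 92_5) share no first name field with the IVF sets. What that field stands for cannot be told apart from conception here. Set 92_3 summed 5 oocytes and set 92_5 summed 7, and every other set summed 8. Of 17368 genes tested, 0 (0%) passed an adjusted p of 0.05 with edgeR, while 1247 (7.18%) had an unadjusted p under 0.05. DESeq2 called 38 genes in the same comparison, 26 with a positive and 12 with a negative difference (IVF minus Natural) in log2 fold change. A positive difference is a larger rise or a smaller fall in IVF. In data simulated with 200 of 17368 genes given an interaction of 2 on the log2 scale, 43% of the 200 were recovered. Apart from these 200, each simulated gene had the same mean at both stages, unlike most genes here. Interactions of that size could still often be missed, and their recovery in these data is not known. Recovery of genes near 0 counts at 1 stage was not tested separately. In this fit the list medians were 14.22 in IVF and 14.88 in Natural for maternal effect genes, -5.67 and -5.80 for cytosolic ribosomal proteins, -3.15 and -3.53 for oxidative phosphorylation and -1.22 and -1.81 for pluripotency and PGC regulators.

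The genes named here were chosen after their values were seen, and none passed the adjustment. H19 had the value 5.84 for IVF minus Natural on the log2 scale (unadjusted p = 0.00109 and adjusted p = 0.474 by edgeR), with a mean of 0.354 CPM in the IVF sets and 0 in the Natural ones, so that its size depends on the fitted prior count. For Zbed3 the difference was 2.80 (SE 0.54, adjusted p = 0.153), with a mean of 0.189 CPM in IVF PGCs and 1.19 CPM in Natural PGCs in this fit. For Ddx4 the difference was -2.49 (adjusted p = 0.599), with 48.5 ± 11.6 CPM in IVF oocyte sets and 265 ± 296 CPM in Natural ones (SD, n = 5 each), and for Ldha it was -1.83 (adjusted p = 0.605). Nanog, Utf1, Gdf9, Dnmt3a and Tet3 differed by 0.42, 0.98, 0.12, -0.37 and -0.07.

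**Figure D4:**
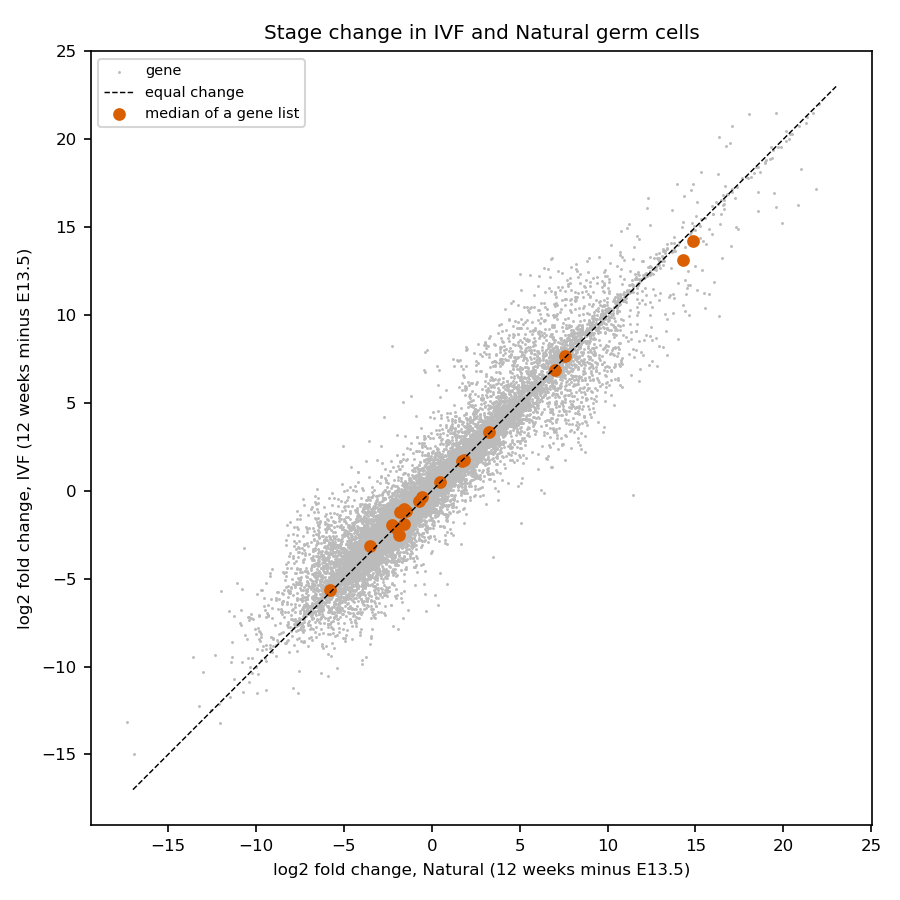
Log2 fold change between the stages (12 weeks minus E13.5) of each of 17368 genes in Natural (x axis) and IVF germ cells (y axis), both from 1 fit over 19 units; the dashed line marks equal change and the orange points are the medians of 19 gene lists. The points lie along the line over the whole range, and 0 genes passed an adjusted p of 0.05 with edgeR.

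Single oocytes show which of these values were shared by every egg. The 6 oocytes that stood apart had total counts of 969774 to 3130597, against 2591803 to 10270378 in the other 34, and mitochondrially encoded shares of 0.280% to 2.02% against 0.121% to 0.422%. They were told apart by their correlation over all genes, so the following values, in CPM of library totals, describe that choice and test nothing, and the genes were chosen after the values were seen. Mos was at 3.19 to 20.6 CPM in the 6 and at 520 to 2107 CPM in the 34. Gdf9 was at 289 to 629 CPM against 11063 to 25813 CPM, H1foo at 128 to 287 CPM against 11903 to 21929 CPM, and Zar1 at 8.85 to 69.0 CPM against 771 to 4023 CPM. Dazl was at 227 to 573 CPM against 976 to 1926 CPM. The 6 were below all 34 for each of these genes. In no PGC library did Mos, Gdf9, H1foo or Zar1 reach 1 CPM after TMM scaling. Dazl was at 1263 to 1974 CPM in the PGC libraries on the TMM scale, which cannot be set beside these library-total values. With library totals its log2 fold change between the stages was -1.16.

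Other mRNAs did not follow. Btg4 was at 10033 to 19462 CPM in the 6 and 5967 to 8419 CPM in the 34 and Dppa3 at 1038 to 2473 CPM against 845 to 1938 CPM. Fth1, the ferritin heavy chain, was at 226 to 772 CPM against 3.08 to 126 CPM, above every other oocyte. Of 4452 genes with a mean of at least 20 CPM, the 6 were below every other IVF oocyte for 655 (14.7%) and above for 701 (15.7%), and for 560 and 438 of these the 4 Natural oocytes that stood apart also lay beyond every other Natural oocyte on the same side. By list, 5 of 9 zona and egg surface genes, 4 of 7 growth factor and junction genes, 9 of 20 maternal effect genes and 5 of 14 proteasome subunits were below every other IVF oocyte. Without the 6 oocytes, 5863 genes were called higher and 5726 lower between the stages, the maternal effect list again had 21 of 21 higher, the cytosolic ribosomal list again 79 of 79 lower, and Dazl was called higher.

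Among the 40 oocytes a median of 23.4% of a gene's sum of squares lay between the 5 sets, where 10.3% would lie there if sets did not differ, and among the 34 the median was 29.0% (12.1% if sets did not differ). The median SD over single oocytes was 0.66 on the log2 scale with all 40 and 0.37 with the 34.

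**Figure D5:**
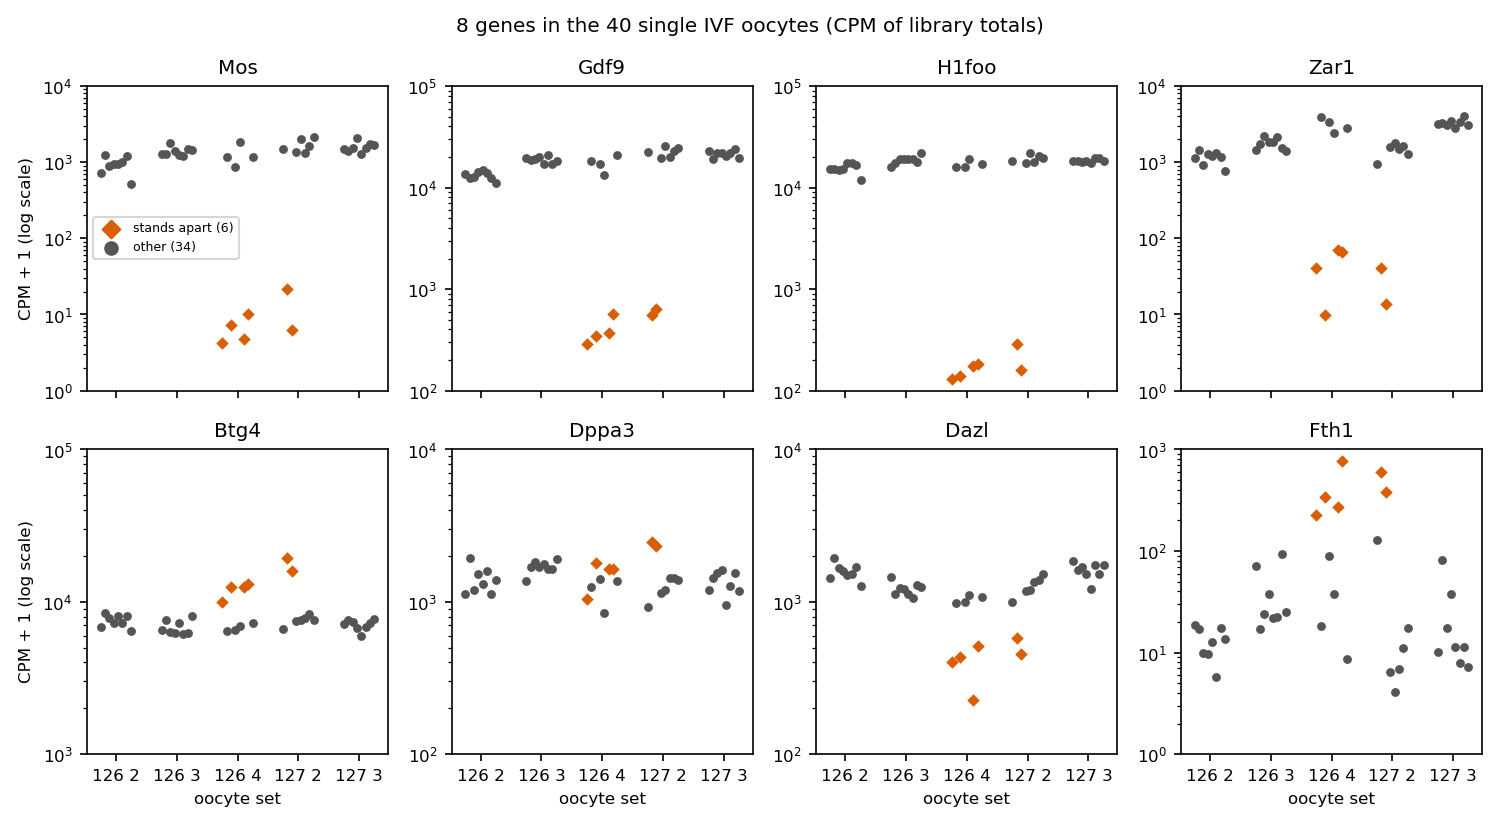
Level of 8 genes in each of the 40 single IVF oocytes (CPM of library totals plus 1, log axis), by oocyte set; orange diamonds are the 6 oocytes that stood apart and gray circles the other 34. Mos, Gdf9, H1foo, Zar1 and Dazl are lower in every diamond than in every circle and Fth1 and Btg4 are higher, while Dppa3 overlaps.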

How the data were processed

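RNA-seq libraries were made from polyadenylated RNA with a modified SMART-seq protocol and Nextera tagmentation. Reads were trimmed (trimgalore per the study's methods, Trimmomatic 0.32 per the submitters' processing notes), aligned to mm10 with STAR 2.3.0e and counted per gene with featureCounts 1.5.0, and the authors deposited raw counts per gene in 1 table per stage, with 35976 gene names in each. No duplicate removal, molecular identifiers or strand setting are given in the sources used here, so overlapping genes cannot be separated; 72.8% of nonzero oocyte counts and 58.8% of nonzero PGC counts were even numbers.

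Sets of oocytes were summed, genes filtered with filterByExpr and tested with edgeR 4.0.16 (R 4.3.3; TMM factors, quasi-likelihood test, and glmTreat with a 2-fold null), with Benjamini-Hochberg adjustment over all tested genes. The sets are not known to come from separate females, and p-values measure only the spread between these samples. CPM are TMM-scaled. Folds against 0 counts use a floor of 3 counts over the group, and intervals and floors cover counting error only. They take each count as a separate event. With most nonzero counts even, as given above, this may not hold. The intervals would then be too narrow and the lower bounds on folds too high, which was not tested. Genes were named by rule, from the members marked in each list and both members of each pair. The rule also took the 8 largest rises and falls without overlap and with at least 10 counts in every unit. It further took the 5 genes with the highest mean CPM at each stage. The marked members Tfap2c, Pcna, Rrm2, Sohlh1, Ago2, Snrpn, Meg3 and Slc2a1 are not described. Other exceptions are given where they occur. The members and lists were chosen with earlier results of these data known. Alternatives changed the tool (DESeq2 1.42.0), scaling, low-count filter, depth, unit and weighting of oocytes and the libraries included. Simulated data with 200 of 14381 genes changed by 2 on the log2 scale gave 81% recovered and 1.82% false calls for the stage comparison. With 200 of 17368 changed for the interaction, 43% were recovered and 8.51% of calls were false. Neither recovery nor the share of false calls was tested for data in which most genes differ between the stages, as here. Promoter windows came from RefSeq (GRCm38.p6). Deposited study comparisons were not used.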

Additional observations from a re-analysis of the deposited data

Results flagged for a closer look

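In 310 groups of 5 values, 32 had 1 value far from the other 4 (a gap over 0.71 of the range). Of these, 8 were in set 126_4, 6 in PGC 4, 5 in PGC 2 and 4 in set 127_2. For normally distributed values such a gap comes in about 1 of 20 groups. That rate does not hold where most units have few or 0 counts, so the 32 cannot be set against it. Many of the 32 were genes with a few counts in 1 unit and fewer or 0 in the others. In the oocyte sets these were Nanos3 in set 126_4 (0.195 CPM), Utf1, Stra8 and Rec8 in set 127_2 (0.151, 0.340 and 0.0754 CPM) and Spo11 in set 126_3 (0.0870 CPM). In the PGC libraries they were Zp2, Astl and Oosp1 in PGC 4 (0.194, 0.389 and 0.0972 CPM), Nlrp5 and Npm2 in PGC 1 (0.170 CPM each), Btg4 and Lhx8 in PGC 5 (0.721 and 0.841 CPM) and Nobox in PGC 3 (1.79 CPM).

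Set 126_4, which holds 4 of the 6 oocytes that stood apart, was above the other sets for Sycp1 (19.9 CPM against 12.2 to 13.9), Stag3 (4.29 CPM against 0.334 to 0.783), Aurkc (271 CPM against 109 to 141) and Rplp0 (203 CPM against 52.5 to 92.0). It was below them for Mcm2 (632 CPM), Oosp1 (1502 CPM) and the log2 ratio of Bcl2l10 over Bcl2l1 (4.41). Set 127_2 was high for Aurkb (46.7 CPM), set 127_3 for Zar1 (6304 CPM) and set 126_2 for Trp63 (35.7 CPM).

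PGC 2 was above the other PGC libraries for COX1 (33239 CPM), CYTB (22815 CPM), the mitochondrially encoded share (16.0% against 4.80% to 6.95%), Afap1l2 (2.86 CPM) and the log2 ratio of Eif4e1b over Eif4e (-11.81, set by the added 0.5 and the Eif4e count, with Eif4e1b at 0 counts in all 5 libraries). PGC 4 was high for Ybx1 (252.5 CPM) and Pfkp (95.6 CPM) and low for the log2 ratio of Smc1b over Smc1a (1.02), and PGC 5 was high for the log2 ratio of Dnmt3a over Dnmt3b (3.94). The source of these differences was not tested.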

How the results depend on the processing

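The scaling between the stages and the filter on low counts changed most. The count of higher genes was 3729 with library totals, 3600 with at least 10 counts in every library and 4107 with 1 oocyte per set, and the count past 2-fold was 5337 with at least 10 counts; leaving out 1 unit gave 5759 to 6672 higher, 5443 to 5924 lower and 9172 to 10304 past 2-fold, 16 to 17 pairs and a mitochondrial difference of -8.46 to -5.65 percentage points. The count of genes whose stage change differed between IVF and Natural was 38 with DESeq2, 5 without a filter and 49 with single oocytes as units, and 0 to 5 with 1 unit left out (5 without Natural PGC 2, 3 without Natural PGC 4, 2 without Natural set 92_5 and 1 each without IVF sets 126_2 or 127_3). Of 2922 values for 129 genes, 2836 kept direction and call, 51 lost the call, 14 gained it and 21 changed sign, in 6 genes. Most lost calls were those of Mcm2 (14) and Pou5f1 (11), then Eif4e (4), Mki67, Sall4 and Ybx2 (3 each). In 23 of the 129 genes leaving out 1 unit moved the fold by over 1.5 times, and in 9 genes (Prdm14, Nanos3, Stra8, Rec8, Stag3, Ybx2, Cdc25b, Mael and H19) leaving out the oocytes that stood apart did. With library totals the log2 fold change was -0.77 for Pou5f1, -1.16 for Dazl, -1.18 for Sycp3, -0.88 for Mcm2, -0.72 for Eif4e and -1.50 for Sdha. With upper-quartile factors it was -0.16 for Dazl, -0.16 for Sycp3 and -0.55 for Sdha. With sets thinned to the PGC depth it was -0.014 for Dazl, -0.065 for Sycp3 and -0.42 for Sdha, with 1 oocyte per set -0.083 for Dazl and -0.61 for Sdha, and with single oocytes -0.24 for Dazl, -0.23 for Sycp3, -0.053 for Mcm2 and -0.67 for Sdha. For Sdha it was -0.074 with at least 10 counts, -0.024 with oocytes weighted equally and -0.061 (without PGC 2) to 0.30 (without PGC 1) with 1 unit left out. The medians for meiotic arrest and DNA methylation were -0.047 and -0.026 with library totals, and that for piRNA genes -0.49 with upper-quartile factors and -1.50 with library totals. These shifts follow the scale factors in the library-total and upper-quartile cases; the cause of the others was not tested. The alternative without the 6 and 4 oocytes that stood apart was chosen after seeing the data. No paired analysis was possible because the names of PGC libraries and oocyte sets share no replicate number that ties them together.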
